A study of Mus musculus with 12 samples.

Results

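Remote regions, which lie more than 100 kb from the transcription start site (TSS) of their nearest gene, made up 5533 of the 55386 regions in which the authors compared interleukin-33 (IL-33) with vehicle. In the larger deposited table, of 104981 regions, 7686 autosomal regions meet the same distance rule, and those outside the comparison are not described here. They were taken from the authors' annotation as regions of 500 bp on chromosomes 1 to 19 with an absolute distance to the TSS over 100000 bp, and no measured signal entered that rule. The acetylation of histone H3 at lysine 27 (H3K27ac) was measured by chromatin immunoprecipitation with sequencing in microglia sorted from the cortex of mice at postnatal day 30, 4 h after an injection into a cerebral ventricle on 1 side. The groups were mice given IL-33, an alarmin of the IL-1 family, and mice given vehicle, and the labels state no strain or genotype. There were 8 H3K27ac libraries, 1 per mouse, from 4 female mice (3, 4, 7 and 8) and 4 male mice (1, 2, 5 and 6). The labels give the sex of each mouse and not its injection, so IL-33 was compared with vehicle only through the authors' deposited table, which gives no value per mouse.

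Enhancers are stretches of regulatory DNA that bind transcription factors and raise the transcription of a gene on the same chromosome, often across long distances through loops of chromatin. H3K27ac is written by the acetyltransferases CBP and p300 and marks enhancers and promoters that are in use. Microglia are the brain's own macrophages; their enhancers are bound by PU.1 and by partners such as C/EBP, AP-1 and MEF2 factors, and IL-33 signals through its receptor ST2 to NF-kB and AP-1. Genes are assigned here by nearness alone, and expression was not assayed.

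The label of a remote region holds for the gene annotation the authors used. In the RefSeq promoter table of GRCm38.p6 the start of a gene fell inside 67 of the remote regions and within 3000 bp of 278. The starts inside regions that changed most with IL-33 are shown, since such a region covers the start of a gene that its annotation does not name. Of the 67 regions, 53 had an adjusted p, and the authors' deposited table lists 4 rises (7.55%) and 7 falls (13.2%) among them. Among all tested remote regions these shares were 8.46% and 10.9%, and among all tested regions 10.2% and 7.99%. Of the 53, the 2 with the largest rises and the 2 with the largest falls are given 5′ to 3′ on the strand of the gene. Each runs from 250 bases before the start to 50 bases after it, credited to RefSeq on GRCm38.p6. Capitals mark AP-1 (TGAGTCA or TGACTCA) and PU.1 (GAGGAAGT or ACTTCCTC) motifs.
Gm26535: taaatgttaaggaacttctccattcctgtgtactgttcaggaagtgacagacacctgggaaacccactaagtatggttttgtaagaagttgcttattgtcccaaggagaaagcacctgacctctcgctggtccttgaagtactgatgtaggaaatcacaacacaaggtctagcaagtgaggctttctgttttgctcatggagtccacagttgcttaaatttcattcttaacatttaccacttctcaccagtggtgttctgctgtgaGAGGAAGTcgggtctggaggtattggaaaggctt
Gm38632: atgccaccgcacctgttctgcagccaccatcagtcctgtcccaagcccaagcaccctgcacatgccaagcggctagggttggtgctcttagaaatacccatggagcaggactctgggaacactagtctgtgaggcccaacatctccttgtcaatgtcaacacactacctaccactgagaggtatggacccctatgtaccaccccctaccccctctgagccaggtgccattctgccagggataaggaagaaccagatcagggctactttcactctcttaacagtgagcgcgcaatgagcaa
LOC102643083: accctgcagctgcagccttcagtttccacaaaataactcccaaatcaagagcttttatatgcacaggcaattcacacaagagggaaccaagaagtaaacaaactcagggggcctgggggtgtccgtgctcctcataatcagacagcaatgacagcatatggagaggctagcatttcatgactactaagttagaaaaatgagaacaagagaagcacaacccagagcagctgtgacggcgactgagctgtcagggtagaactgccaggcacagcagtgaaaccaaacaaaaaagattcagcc
Gm29854: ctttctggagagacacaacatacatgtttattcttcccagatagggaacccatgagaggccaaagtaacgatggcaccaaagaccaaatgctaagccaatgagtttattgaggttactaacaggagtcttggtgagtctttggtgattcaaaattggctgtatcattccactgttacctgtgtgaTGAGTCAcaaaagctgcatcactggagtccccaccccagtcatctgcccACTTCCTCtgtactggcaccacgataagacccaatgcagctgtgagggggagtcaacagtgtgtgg

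The printed window of Gm26535 is chr10:37319255-37319554 on the plus strand, and the gene starts in a region assigned to Marcks; the window holds 1 PU.1 motif. That of Gm38632 is chr4:120033344-120033643 on the minus strand, with the start in a region assigned to Edn2, and holds none of the motifs searched. That of LOC102643083 is chr2:102057238-102057537 on the plus strand, with the start in a region assigned to Ldlrad3, and holds none either. That of Gm29854 is chr16:7767641-7767940 on the plus strand, with the start in a region assigned to Tmem114, and holds 1 AP-1 and 1 PU.1 motif. The windows of Gm38632 and Gm29854 extend beyond the regions that hold the starts. The region of Gm29854 begins at 7767855, so the AP-1 motif, at base 186 of the window, lies outside the measured region. Searched on both strands, the PU.1 letters were found in 8 of the 67 windows and in 3.25% of 31396 autosomal windows of the same length. AP-1 letters were found in 5 of the 67 windows and in 5.26% of all. NF-kB letters (GGGNNTTCC or GGAANNCCC) were found in 3 windows and in 5.91% of all, and no motifs overlap in the printed windows. The C/EBP letters (TTNCGCAA or TTGCGNAA) and STAT letters (TTCCNGGAA) were in none of the 67 windows, against 0.796% and 1.18% of all windows. A match of letters is a description and not a bound site.

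The region that covers the start of Gm26535 (chromosome 10, 37319121 to 37319621) held 91.0, 77.4, 16.7 and 18.6 tags in female mice 3, 4, 7 and 8, and 89.8, 59.6, 12.6 and 7.75 tags in male mice 1, 2, 5 and 6. A tag is a read scaled by the authors to a library of 10000000. Within each sex 2 libraries were high and 2 low, and the sexes overlapped. The authors' deposited table sets IL-33 over vehicle and puts this region at 2.37 log2 units (SE 0.38, adjusted p = 3.33e-08), where a positive value means more signal with IL-33. The region over the start of Gm29854 (chromosome 16, 7767855 to 7768355) held 8.80, 2.42, 103.1 and 153.1 tags in female mice 3, 4, 7 and 8, and 12.97, 20.6, 65.0 and 36.8 tags in male mice 1, 2, 5 and 6. The libraries that were high at the first region were low at this one. It stood at -2.37 in the authors' deposited table (SE 0.42, adjusted p = 6.58e-07). The regions at Gm38632 and LOC102643083 stood at 1.77 (SE 0.30) and -2.05 (SE 0.36) in the authors' deposited table.

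Remote regions were placed mostly in intergenic DNA (2977 regions, 53.8%) and introns (2485 regions, 44.9%). Among the 48719 autosomal regions of the comparison at most 100 kb from a TSS, the shares were 37.5% intergenic and 56.3% intron. Of the 2485 intron regions, 1430 (57.5%) lay in an intron of the nearest gene itself, so in the others the host gene differed from the gene they were assigned to. Exons held 34 regions, 3′ UTRs 19 and gene ends 12. The distance to the TSS had a median of 149.5 kb, 1559 regions lay beyond 200 kb, 150 beyond 500 kb and 20 beyond 1000 kb. Upstream of the TSS lay 2148 regions, and 3385 lay downstream. At the threshold, regions of 2010111I01Rik and Rgl1 lay just inside at 100.005 and 100.016 kb, and 1 of Frmd4a just outside at 99.994 kb. The farthest regions belonged to 1700065L07Rik at 1726 kb and to Slc10a2, an ileal bile acid transporter gene, at 1504 kb. In the RefSeq gene table, 1201 remote regions were also over 100 kb from both ends of every protein-coding, lncRNA and miRNA gene.

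The regions had 1173 nearest genes, of which 397 had 1 remote region and 162 had at least 10. Joined across gaps of up to 10000 bp, they formed 2334 clusters, of which 1268 were single regions and 69 held at least 10 regions, 962 in all. Neighbouring regions share signal, and 490 (8.86%) overlapped the next, so regions of a cluster are not independent measurements. The cluster with most regions, 37 over 106.9 kb on chromosome 6, spanned introns of Etv6.

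The libraries held 2155209 to 4133042 tags in female and 5160915 to 10019606 tags in male mice. A remote region held a median of 3, 4, 4 and 3 reads in female mice 3, 4, 7 and 8, and of 9, 8, 10 and 5 reads in male mice 1, 2, 5 and 6. Remote regions without a read made up 17.6 to 30.4% in female and 5.53 to 10.03% in male libraries, and depth therefore limits what a single region shows, above all in female mice. Promoter regions of the 8 microglial markers checked, such as Cx3cr1 and P2ry12, summed to 3333 to 4779 tags in female and 2748 to 3492 in male libraries. Markers of neurons summed to 0 in every female library and 0 to 5.81 tags in male libraries, with a region at 2 of 5 genes. Astrocyte markers likewise summed to 0 in every female library and 0 to 6.87 tags in male libraries, with a region at 1 of 4 genes. Border macrophage markers (a region at 2 of 4 genes) summed to 58.7 to 102.1 tags in female and 48.1 to 88.1 in male libraries. Oligodendrocyte markers (5 of 5) summed to 26.6 to 116.0 tags in female and 36.9 to 77.6 in male libraries, and endothelial markers (2 of 3) to 44.0 to 97.6 in female and 51.6 to 69.2 in male libraries. Monocyte and neutrophil markers (1 of 4) summed to 0 to 4.64 tags in female and 0 to 1.15 in male libraries. The lymphocyte markers had no region.

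The IL-33 comparison asked which of these distant regions gained or lost acetylation within 4 h. The authors' deposited table holds an adjusted p for 3784 of the 5533 remote regions, and the other 1749 had a mean level of at most 2.73. By the authors' deposited table, 320 remote regions rose with IL-33 (8.46%) and 412 fell (10.9%) at an adjusted p under 0.05. Over all 40352 regions tested in the authors' deposited table the shares were 10.2% for rises, 7.99% for falls and 18.2% for either. So rises outnumbered falls over all regions, and falls outnumbered rises among the remote ones, with a median log2 fold change of -0.14 for remote regions and -0.01 for all in the authors' deposited table. The median rise was 1.51 and the median fall -1.41 in the authors' deposited table, and 67 rises and 55 falls there reached 2 log2 units. The libraries hold no absolute standard, so a fall is relative to the rest of a library.

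The balance between falls and rises moved with distance. Between 100 and 200 kb, the authors' deposited table lists 9.17% of 2758 tested regions as risen and 8.81% as fallen. Between 200 and 300 kb, rises were 8.56% of 654 regions and falls 14.4% in the authors' deposited table. Beyond 300 kb, the authors' deposited table lists 2.96% of 372 regions as risen and 20.2% as fallen, that is 11 rises and 75 falls at 107 nearest genes. For comparison, 10.98% rose and 6.90% fell among the 10167 regions at 3 to 10 kb in the authors' deposited table. By the authors' deposited table the median log2 fold change was -0.08 at 100 to 200 kb, -0.24 at 200 to 300 kb and -0.51 beyond 300 kb.

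**Figure D1:**
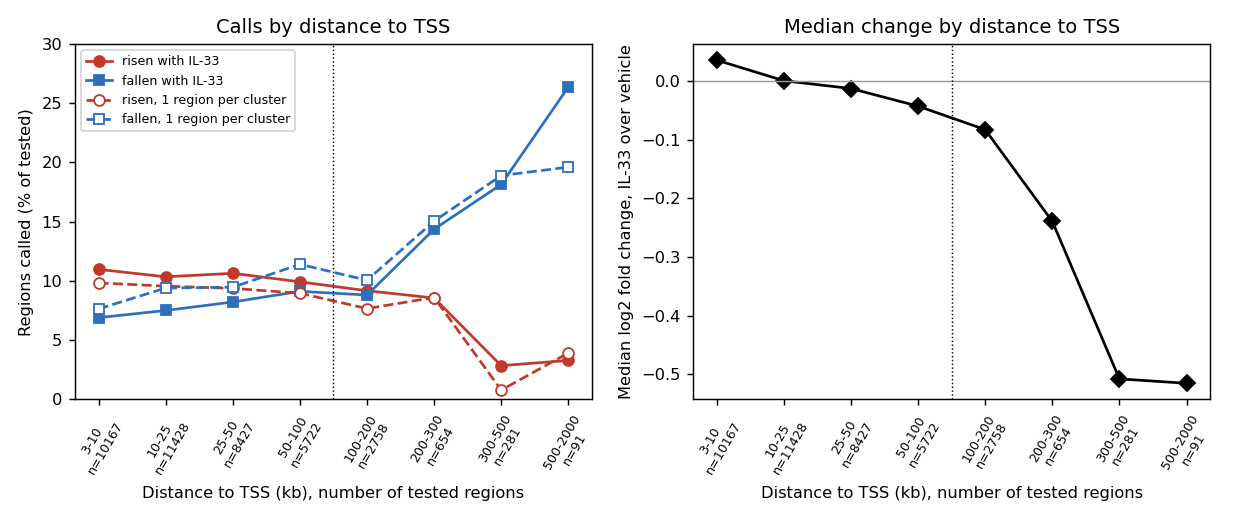
Left, percentage of tested regions that rose (circles) or fell (squares) with IL-33 in the authors' deposited table, by distance to the TSS in kb; open symbols count 1 region per cluster, and remote regions stand right of the dotted line. Right, median log2 fold change, IL-33 over vehicle. Beyond 500 kb, falls reach 26.4% and rises 3.30% of the 91 tested regions. Sdk1 holds 9 of the 24 falls there, and without it 18.75% of 80 regions fell. Counting 1 region per cluster, 19.6% of 51 fell.

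Counting 1 region per cluster, falls outnumbered rises at every remote distance, but this was not particular to remote regions. At 50 to 100 kb, the authors' deposited table lists 8.96% of 2008 clusters as risen and 11.4% as fallen. At 25 to 50 kb the shares were nearly equal, 9.38% and 9.47% of 3061 clusters in the authors' deposited table. Of 1004 clusters at 100 to 200 kb, the authors' deposited table lists 7.67% as risen and 10.06% as fallen, where single regions had slightly more rises than falls. Of 279 clusters at 200 to 300 kb, the authors' deposited table lists 8.60% as risen and 15.1% as fallen, so rises were not fewer there than at 100 to 200 kb. Of 178 clusters beyond 300 kb, 1.69% rose and 19.1% fell by the calls of the authors' deposited table. Sdk1, the nearest gene with most falls there (9), did not carry the share alone, since 18.3% of the other 361 regions fell in the authors' deposited table. The 75 falls beyond 300 kb belonged to 31 nearest genes on 15 chromosomes. Both intergenic and intron regions fell more often than they rose there, since the authors' deposited table lists 18.6% of 242 intergenic and 22.7% of 128 intron regions beyond 300 kb as fallen, and 2.89% and 3.13% as risen. Among remote regions that were also over 100 kb from both ends of every RefSeq gene, 20.1% of 154 beyond 300 kb fell and 5.19% rose in the authors' deposited table. Of these regions, 8.56% of 444 fell and 6.76% rose at 100 to 200 kb. At 200 to 300 kb 12.6% of 151 fell and 2.65% rose, so under this definition rises did not decline steadily with distance.

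Signal fell with distance too, since the median mean level of tested regions was 13.5 at 3 to 10 kb and 8.91 beyond 300 kb in the authors' deposited table. Within 1 range of levels, 20 to 50 in the authors' deposited table, 38.2% of 68 regions beyond 300 kb fell and 1.47% rose, against 13.6% and 14.8% of 8229 regions at 3 to 100 kb. At levels of 10 to 20 in the authors' deposited table, 31.1% of 74 regions beyond 300 kb fell and 5.41% rose, against 7.91% and 12.1% of 7417 regions at 3 to 100 kb. In all 5 ranges of level examined, the share of falls beyond 300 kb was above that at 3 to 100 kb and the share of rises below it. The distances between did not follow this order in every range. At levels of 10 to 20 in the authors' deposited table, 15.5% of 129 regions at 200 to 300 kb rose and 20.2% fell. At levels of 50 and over, the authors' deposited table lists 20.95% of 315 regions at 100 to 200 kb as risen and 11.1% as fallen, against 17.8% and 14.5% of 4686 regions at 3 to 100 kb. The part of signal level in the shares was not tested.

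Long terminal repeats (530 regions) had 27 rises (7.80%) and 39 falls (11.3%) among 346 tested regions in the authors' deposited table, near the 8.46% and 10.9% of all remote regions. LINEs (273) had 11 rises (6.29%) and 15 falls (8.57%) among 175, and SINEs (145) 6 rises (6.06%) and 9 falls (9.09%) among 99, in the authors' deposited table. The 17 satellite regions, with a median mean level of 110.6, had no call in the authors' deposited table and 0 with its unadjusted p under 0.05. Regions found only in the IL-33 peak set (893) had 102 rises (19.7%) and 25 falls (4.83%) among 518 tested in the authors' deposited table, and those found only in the vehicle peak set (610) had 9 rises (3.26%) and 50 falls (18.1%) among 276. Those peak sets bear the names of the same groups, and the libraries they were called from were not checked. They are not taken as independent evidence.

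An intron of Prkce, the gene of protein kinase C epsilon, held the largest rise, with 2010106C02Rik as nearest gene (chromosome 17, 86507204 to 86507704, 220.3 kb from the TSS). It held 49.9, 96.8, 5.57 and 0 tags in female mice 3, 4, 7 and 8, and 47.9, 43.5, 0 and 0 tags in male mice 1, 2, 5 and 6. The signal came from 2 libraries of each sex, and 3 libraries had no read. In the authors' deposited table it rose by 4.04 log2 units (SE 0.56, adjusted p = 8.6e-11), with a group value on the log2 scale of 4.86 for IL-33 and 0.44 for vehicle. Beside it, another region stood at 3.55 in the authors' deposited table.

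More signal was found 114.2 kb upstream of Tbl1xr1, which encodes a subunit of the NCoR and SMRT corepressor complexes (chromosome 3, 21962244 to 21962744). This intergenic region held 228.9, 329.1, 22.3 and 23.2 tags in female mice 3, 4, 7 and 8, and 209.6, 173.0, 8.39 and 25.2 tags in male mice 1, 2, 5 and 6. Mice 3, 4, 1 and 2 stood far above the other 4 mice at this region, and the sexes overlapped. The authors' deposited table puts it at 3.48 (SE 0.30), with the smallest adjusted p of any remote region, 1.21e-27. Of the 28 tested remote regions of Tbl1xr1, which reach out to 665.7 kb, 8 rose and none fell in the authors' deposited table, beside 1 rise among its 39 tested regions nearer the gene.

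Etv6 encodes an ETS-family transcriptional repressor, and all its 27 remote regions lay in its introns. The region with the largest rise (chromosome 6, 134208612 to 134209112, 173.2 kb from the TSS) held 108.6, 94.4, 2.79 and 9.28 tags in female mice 3, 4, 7 and 8, and 51.9, 27.5, 0 and 3.88 tags in male mice 1, 2, 5 and 6. Again 2 libraries of each sex carried nearly all its reads. With IL-33 it rose by 3.58 log2 units in the authors' deposited table (SE 0.52, adjusted p = 9.11e-10). Of the 26 tested remote regions of Etv6, 17 rose and none fell in the authors' deposited table, with a median log2 fold change of 0.97. Nearer to the TSS, 11 of 36 tested regions of Etv6 rose in the authors' deposited table. Bcl2l14, which encodes a BCL2-family protein, is the nearest gene of another region in an Etv6 intron, at 3.17 in the authors' deposited table.

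Maf encodes c-Maf, a bZIP transcription factor of macrophages, and had more remote regions than any other gene (54, all downstream, out to 546.8 kb). Its largest rise (chromosome 8, 115392295 to 115392795, 314.3 kb from the TSS) held 14.7, 36.3, 0 and 0 tags in female mice 3, 4, 7 and 8, and 19.96, 21.8, 0 and 0 tags in male mice 1, 2, 5 and 6. The vehicle value of this region is listed at 0 in the authors' deposited table, so its fitted log2 fold change of 3.33 gives no fold. Of 41 tested remote regions of Maf, 10 rose and none fell, with a median of 0.68, in the authors' deposited table. The 26 tested regions of Maf within 100 kb had no rise, 1 fall and a median of -0.41 in the authors' deposited table. The difference between its remote and nearer regions was not tested.

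Marcks encodes an actin-binding substrate of protein kinase C, and 12 of its 30 tested remote regions rose and none fell in the authors' deposited table. Nearer to the TSS, 18 of 36 tested regions of Marcks rose there, with a median of 0.84, against 0.44 for the remote ones. The largest remote rise of Marcks stands in the authors' deposited table at 2.81 (SE 0.38, adjusted p = 2.29e-11), 181.3 kb upstream and next to the region at the start of Gm26535. The other genes with most rises in the authors' deposited table were Mir5130 (11 of 24), 4930459C07Rik (11 of 23) and Clvs1, which encodes a lipid-binding protein of clathrin-coated vesicles (10 of 20). No tested region of these 3 genes fell in the authors' deposited table. Summed over its remote regions, Clvs1 held 1737, 2611, 1081 and 1025 tags in female mice 3, 4, 7 and 8, and 1969, 1366, 765.4 and 744.1 in male mice 1, 2, 5 and 6. Mouse 4 was highest among the females and mouse 1 among the males, and the sexes overlapped.

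**Figure D2:**
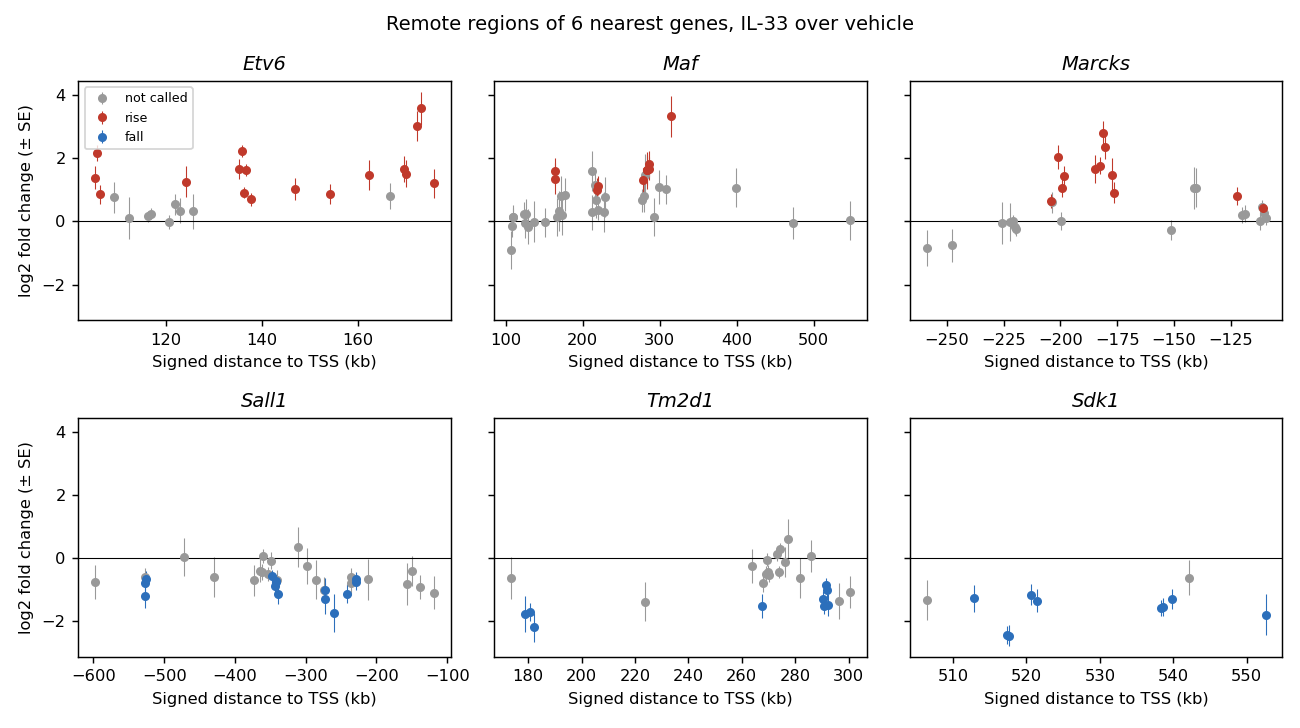
Log2 fold change with its standard error from the authors' deposited table (IL-33 over vehicle) for each tested remote region of 6 nearest genes, against signed distance to the TSS in kb; each point is 1 region. Etv6, Maf and Marcks show 17, 10 and 12 rises and no fall, and Sall1, Tm2d1 and Sdk1 show 14, 9 and 9 falls and no rise.

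Hivep3 encodes a zinc finger protein that binds kappa B-like motifs. A region in its intron (chromosome 4, 119976377 to 119976877) held 181.9, 348.4, 30.7 and 9.28 tags in female mice 3, 4, 7 and 8, and 189.6, 136.3, 29.4 and 11.6 tags in male mice 1, 2, 5 and 6. It rose by 3.02 log2 units in the authors' deposited table (SE 0.31, adjusted p = 1.2e-19). The cluster around it, shared with regions assigned to Edn2, which encodes endothelin 2, spans 91.8 kb and had 12 rises and no fall among 32 tested regions in the authors' deposited table. The region at the start of Gm38632 is 1 of them. The authors' deposited table also lists large rises in introns of Rbfox1, a splicing regulator of neurons (3.25), of Carmil1 with Scgn as nearest gene (3.09) and of Chst11, a chondroitin sulfotransferase gene (2.96), and beside 1700019E08Rik (3.01). The Carmil1 and Chst11 regions held 66 and 64 reads over the 8 libraries. Their vehicle values were 0.27 and 0.28 in the authors' deposited table, so the sizes of these rises are uncertain.

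Sall1 encodes a zinc finger repressor needed for microglial identity, and 14 of its 36 tested remote regions fell and none rose in the authors' deposited table. All its 42 remote regions lie upstream, from 117.1 to 597.4 kb, with a median log2 fold change of -0.69 over those tested in the authors' deposited table. Summed over these regions, signal was 1696, 1940, 3490 and 3062 tags in female mice 3, 4, 7 and 8, and 1641, 1499, 2449 and 2232 tags in male mice 1, 2, 5 and 6. Mice 7 and 8 were above mice 3 and 4, and mice 5 and 6 above mice 1 and 2. Within 100 kb of the TSS, 5 of 20 tested Sall1 regions fell and none rose in the authors' deposited table.

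Sdk1, which encodes an adhesion molecule of the immunoglobulin superfamily, had 9 falls among 11 tested remote regions in the authors' deposited table and no tested region nearer the TSS. Among them the authors' deposited table puts a region in a Sdk1 intron, 517.3 kb from the TSS, at -2.44 (SE 0.28, adjusted p = 1.09e-15). Summed over the Sdk1 regions, signal was 255.3, 321.8, 1148 and 1072 tags in female mice 3, 4, 7 and 8, and 279.5, 266.9, 858.7 and 779.0 tags in male mice 1, 2, 5 and 6. As at Sall1, mice 7, 8, 5 and 6 held the high values. Tm2d1, which encodes a membrane protein that binds amyloid beta, had 9 falls of 26 in the authors' deposited table. Prl5a1 of the prolactin family followed with 7 of 8, and Mir378d with 7 of 13, in the authors' deposited table. Efna5, the gene of ephrin-A5 (6 of 12), 4930591A17Rik (6 of 10) and F630206G17Rik (6 of 13) were tied in the authors' deposited table, and none of these genes had a rise.

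Among single falls, a region 269.2 kb upstream of Naaladl2 (chromosome 3, 25052937 to 25053437) held 0, 0, 69.7 and 83.5 tags in female mice 3, 4, 7 and 8, and 4.99, 8.02, 50.3 and 27.1 tags in male mice 1, 2, 5 and 6. Mice 3 and 4 had no read there, and mice 7, 8, 5 and 6 held the higher values of their sex. The authors' deposited table puts this region at -3.02 (SE 0.49, adjusted p = 5.36e-08). Between genes, 158.2 kb from Kcnk2, the gene of the potassium channel TREK-1 (chromosome 1, 189184860 to 189185360), a region held 29.3, 36.3, 189.5 and 143.8 tags in female mice 3, 4, 7 and 8, and 11.98, 21.8, 143.6 and 129.8 tags in male mice 1, 2, 5 and 6. Mice 7, 8, 5 and 6 were high here, as at Naaladl2. It stood at -2.58 in the authors' deposited table (SE 0.29, adjusted p = 7.47e-16).

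A region in an intron of Igf1r, the receptor gene of insulin-like growth factor 1, assigned to Pgpep1l (chromosome 7, 68144257 to 68144757), held 26.4, 21.8, 86.4 and 120.6 tags in female mice 3, 4, 7 and 8, and 4.99, 3.44, 86.0 and 77.5 tags in male mice 1, 2, 5 and 6. The authors' deposited table puts this intron region at -2.70 (SE 0.39). A region on a long terminal repeat near D7Ertd443e (chromosome 7, 134519545 to 134520045) held 8.80, 0, 75.3 and 88.2 tags in female mice 3, 4, 7 and 8, and 4.99, 16.0, 75.5 and 73.6 tags in male mice 1, 2, 5 and 6. The low and high libraries were those of the Igf1r region. The repeat stood at -2.83 in the authors' deposited table (SE 0.42). The other large falls in the authors' deposited table were near Prim2, a primase subunit gene (-2.84), 1700012D14Rik (-2.79), the adrenergic receptor gene Adra2a (-2.71), the cadherin gene Cdh26 (-2.68 and -2.67), A230009B12Rik (-2.65), Commd10 (-2.61) and Spock1, a proteoglycan gene (-2.57). The regions near Prim2, A230009B12Rik, Commd10 and Spock1 held only 32 to 37 reads over the 8 libraries. Their IL-33 values were 0.19 to 0.46 in the authors' deposited table (SE 0.63 to 0.66), so the sizes of these falls are uncertain.

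**Figure D3:**
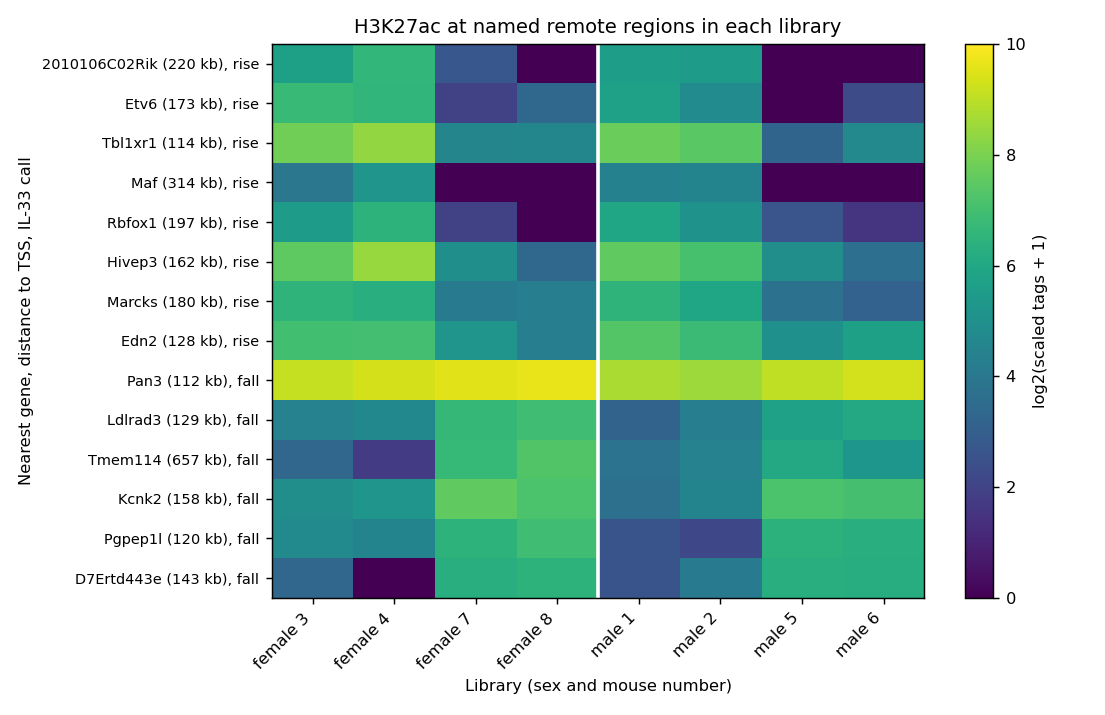
Log2 of scaled tags plus 1 (colour) at 14 named remote regions that changed with IL-33 in the authors' deposited table, in the 4 female libraries (left of the line) and the 4 male libraries (right). Rows run from the largest rise to the largest fall of those drawn; the region of Pan3 has the highest signal in every library.

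Of 804 nearest genes with a tested remote region, the authors' deposited table gives only rises for 105, only falls for 188, both for 11 and no call for 500. Calls within a cluster mostly shared a direction in the authors' deposited table. Of 171 clusters with at least 2 called regions there, 71 had only rises, 96 only falls and 4 both. These splits were not made for genes or clusters within 100 kb, so whether they are particular to remote regions was not tested. Neighbouring regions share signal, so calls of the same direction in a cluster are not independent. Ly86, which encodes the RP105 partner MD-1, had 40 remote regions, and 1 rose and 2 fell of 37 tested in the authors' deposited table. Dock4, a Rac exchange factor gene, had 1 rise and 3 falls among 29 in the authors' deposited table, and 9430078K24Rik, with regions in Rad51b introns, 3 rises among 31. Rbfox1 had 5 rises and 3 falls among 19 in the authors' deposited table.

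**Figure D4:**
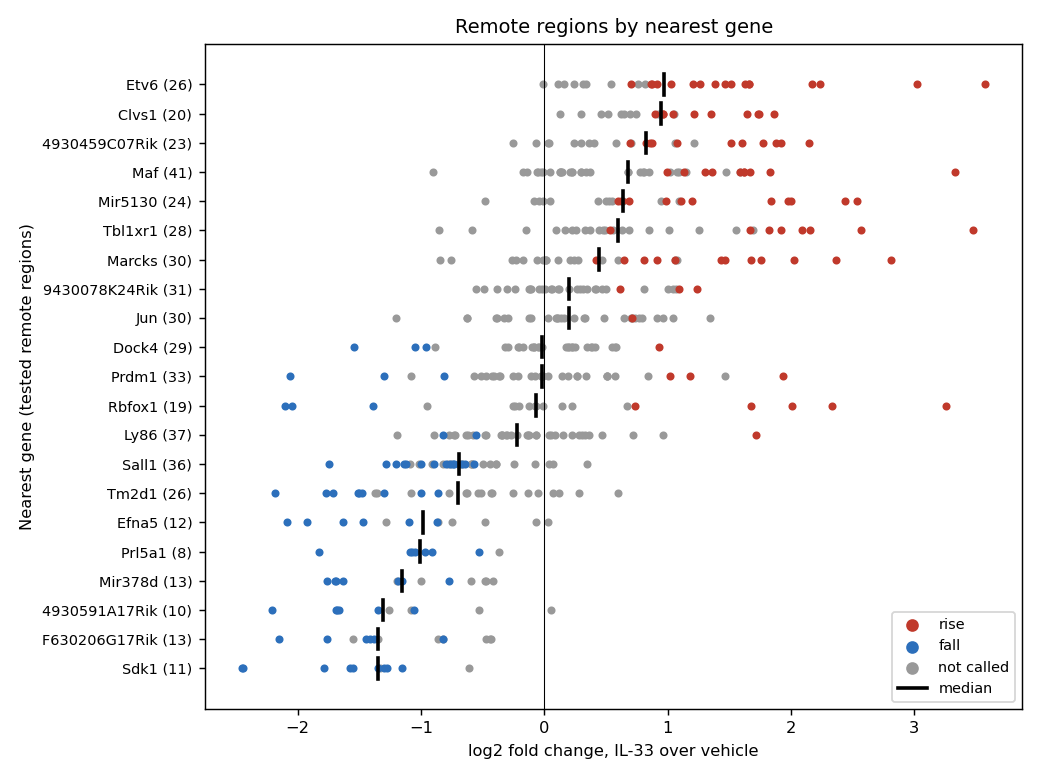
Log2 fold change (IL-33 over vehicle, the authors' deposited table) of every tested remote region of the nearest genes with most regions, most rises or most falls; the black bar is the median, and the number of tested regions stands in brackets. Etv6 has the highest median, 0.97, and Sdk1 the lowest, -1.35.

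Remote regions of microglial identity factor genes went in both directions, with 22 rises (13.9%) and 18 falls (11.4%) among 158 tested in the authors' deposited table and a median of 0.04. Over all tested regions of the authors' deposited table these shares were 10.2% and 7.99% with a median of -0.01, and over all remote regions 8.46% and 10.9% with a median of -0.14. Besides the 10 Maf rises, Zeb2 had 8 of 27 and Runx1, a factor of haematopoiesis, 4 of 17 in the authors' deposited table, with no fall. Besides Sall1, Arid5b had 2 falls of 8 and Tcf4 2 of 15 in the authors' deposited table, with no rise. No tested remote region of Mef2a (8) or Etv1 (6) passed the threshold in the authors' deposited table.

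Regions of actin and migration genes had 13 rises (19.1%) and no fall among 68 tested in the authors' deposited table, with a median of 0.25. Of these rises, 12 were at Marcks, so the list's share rests on 1 gene, and 1 of 25 was at Elmo1, a partner of DOCK Rac exchange factors. Regions of AP-1 and immediate early factor genes had 1 rise (2.13%) and no fall among 47 tested in the authors' deposited table, below the 10.2% and 7.99% of all tested regions, with a median of 0.11. That rise, 1 of 30 at Jun, stands at 0.71 in the authors' deposited table (adjusted p = 0.0297), and none of 12 at Klf4 was called. Jun and Klf4 hold most of the 47 regions. The median mean level of the 47 was 7.26 in the authors' deposited table, against 12.2 for all tested regions, and the part of level in their share was not tested. Prdm1, which encodes the repressor Blimp-1 and holds every tested region of the STAT3 and cytokine feedback list, had 3 rises and 3 falls (9.09% each) among 33 in the authors' deposited table, near the shares of all tested regions, with a median of -0.02.

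Few remote regions belonged to NF-kB genes, with 1 rise (20%) and no fall among 5 tested in the authors' deposited table, too few to set against the 10.2% of all tested regions. It lies 123.3 kb from Nfkbiz, the gene of the nuclear protein I kappa B zeta, where the authors' deposited table gives 1.31 (SE 0.34, adjusted p = 0.00181). Within 100 kb, 13 of 19 tested Nfkbiz regions rose in the authors' deposited table. The 3 tested remote regions of the cytokine genes Il6 and Il12b had no call in the authors' deposited table, with log2 fold changes from -0.02 to 0.39. Within 100 kb, 7 of 12 tested Il12b regions rose there, and 1 of 6 tested Il6 regions fell. Zfp36l2, which encodes a decay factor of AU-rich mRNAs, had 3 falls of 3, in introns of Thada, and Btg1, an antiproliferative gene, 1 rise of 7 in the authors' deposited table, which makes 3 falls (27.3%) and 1 rise (9.09%) among 11 for mRNA decay regulators, with a median of 0.43. The 3 falls lie together on chromosome 17, between 84290488 and 84293592, so the list's share of falls rests on 1 locus. Within 100 kb, 11 of 30 tested Zfp36l2 regions fell in the authors' deposited table. Tgfbr2, a receptor subunit of TGF-beta, was the gene of the homeostatic list with tested remote regions, and 1 of 2 fell, at -1.41, in the authors' deposited table. Nearer to its TSS, 12 of 42 tested Tgfbr2 regions fell there. Of the other cell types, neuronal genes had 5 rises (23.8%) and 3 falls (14.3%) among 21, all at Rbfox1, in the authors' deposited table. Over all tested regions the shares were 10.2% for rises and 7.99% for falls, and the neuronal shares rest on 1 gene. Astrocyte genes had no call among 6 tested (Nfia), lymphocyte genes 1 rise among 4 (Bcl11a), and the oligodendrocyte list and the border macrophage, monocyte and neutrophil list no remote region, in the authors' deposited table.

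The remote regions with the highest signal were satellite repeats near Lrrc4c, an adhesion gene of synapses. The strongest (chromosome 2, 98666881 to 98667381) held 3260, 2886, 2798 and 3846 tags in female mice 3, 4, 7 and 8, and 1334, 2201, 1831 and 3048 tags in male mice 1, 2, 5 and 6. The copies of a satellite repeat share reads, so the assignment of these tags to 1 place is uncertain. No call was made for it in the authors' deposited table (-0.23, SE 0.29, adjusted p = 0.662), and the lowest female value lay below the highest male value. Outside repeats, a region in an intron of Pan3, a deadenylase subunit gene (chromosome 5, 147541597 to 147542097), held 563.3, 650.9, 749.8 and 821.3 tags in female mice 3, 4, 7 and 8, and 419.2, 371.1, 531.6 and 641.4 tags in male mice 1, 2, 5 and 6. It fell by 0.45 log2 units in the authors' deposited table (SE 0.12, adjusted p = 0.00316). A region near the noncoding RNA gene Dleu2 held 469.5, 989.6, 657.8 and 858.4 tags in female mice 3, 4, 7 and 8, and 400.2, 430.7, 446.7 and 498.0 tags in male mice 1, 2, 5 and 6. Every female value but that of mouse 3 lay above the male values, and the authors' deposited table puts the region at -0.11 (adjusted p = 0.739).

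Sex is the other group the labels give. Remote regions held 4.86, 4.60, 5.59 and 5.31% of the tags in autosomal regions in female mice 3, 4, 7 and 8, and 4.12, 4.34, 4.53 and 4.70% in male mice 1, 2, 5 and 6. The lowest female share lay below the highest male share. The mean was 5.09% ± 0.444 in female and 4.42% ± 0.249 in male mice (SD, n = 4 each), a difference of 0.666 percentage points (two-sided exact permutation test, p = 0.0571, the smallest possible being 0.0286). Over regions farther than 50 kb the difference was 1.69 points (exact permutation p = 0.0286). With only regions over 3000 bp from a TSS in the denominator, the shares were 9.06% ± 0.460 in female and 8.83% ± 0.368 in male mice (n = 4 each), and the exact permutation p was 0.457. Header text gives 1 date for the female libraries, with dual index reads, and another for the male libraries, with single index reads, so sex and library batch cannot be told apart, and no batch holds both sexes. The spread within a sex includes any effect of IL-33.

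**Figure D5:**
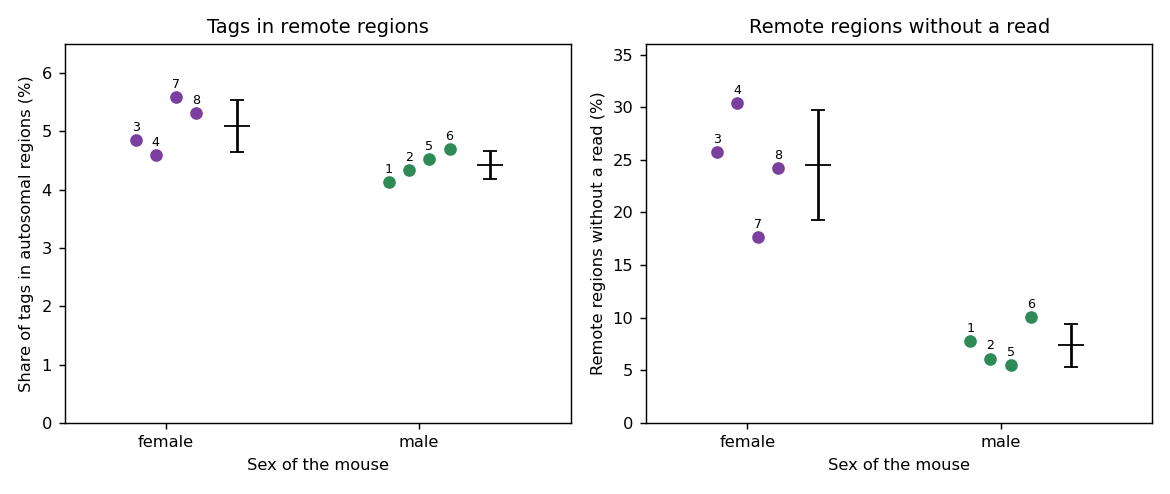
Left, share of tags in autosomal regions that fell in remote regions (%), and right, share of the 5533 remote regions without a read (%), for each female and male library; numbers are mice, and bars are mean ± SD (n = 4 each). Female shares span 4.60 to 5.59% and male shares 4.12 to 4.70%.

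Region by region, 2858 remote regions had a mean of at least 10 tags and entered a limma fit of log2(tags + 1) over 53348 regions. Of these remote regions 7 were higher and 1 lower in female mice at a Benjamini-Hochberg adjusted p under 0.05, where 0.15% of all regions were higher and 1.87% lower. TMM rescaling moved the median female minus male difference of all regions to -0.09, against 0.22 with the authors' scaling, and that of remote regions to 0.00, against 0.32. Under TMM rescaling no remote region was higher and 3 were lower in female mice.

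The region lower in female mice lies 178.9 kb upstream of Bach2, which encodes a bZIP repressor of lymphocytes (chromosome 4, 32238327 to 32238827). It held 14.7, 29.0, 25.1 and 32.5 tags in female mice 3, 4, 7 and 8, and 68.9, 75.6, 138.4 and 145.3 tags in male mice 1, 2, 5 and 6, with 5 to 12 reads in each female library. The sexes did not overlap. The log2 difference was -2.01 (SE 0.38, limma adjusted p = 0.0128), and over 15 alternatives the adjusted p ranged from 0.00297 to 0.0768. The call was lost without male mouse 5 and without male mouse 6. For IL-33 the authors' deposited table gives this region -0.62 (adjusted p = 0.556).

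The regions higher in female mice had as nearest genes Kcnma1, a calcium-activated potassium channel gene, Man1a, a Golgi mannosidase gene, Dclk1, a doublecortin-like kinase gene, Klhl25, Trpm1 and Zfp648. Man1a averaged 309.9 ± 71.9 tags in female and 143.3 ± 37.2 in male mice (SD, n = 4 each), a log2 difference of 1.12 (SE 0.25, limma adjusted p = 0.0392). Klhl25 averaged 306.7 ± 39.6 tags in female and 160.4 ± 20.1 in male mice (SD, n = 4 each), a log2 difference of 0.93 (SE 0.20, limma adjusted p = 0.0287). The log2 differences of Kcnma1, Trpm1, Zfp648 and Dclk1 were 0.96, 0.74, 0.78 and 1.16. The other region, outside the rule for naming, is a satellite in a Chl1 intron at 0.92. At each of these 7 regions the difference kept its sign and lost its call under TMM rescaling and under quantile normalisation.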

How the data were processed

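H3K27ac libraries of 8 mice were analysed, and the 4 input libraries of the male mice were not analysed here. The submitters' processing notes name Bowtie2 and HOMER, without versions, and build mm10 (GRCm38). Per the file headers, the authors deposited a signal for each 500 bp region, as tags scaled to 10000000 per library, and the header totals returned whole reads for 100% of values (within 0.01 of a read). Per the file headers, the authors' deposited table of IL-33 over vehicle gives log2 fold changes and log2 group values, a mean level (signal), a standard error and test statistic (each a score) and p-values with their adjusted values. Which tool made that table is not stated per the labels or headers. No sample column was left unused (0).

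Regions were joined by ID and chosen by distance alone. The members, the 13 gene lists and the rules were chosen with earlier results of these data known. Named are the 12 largest rises and falls, the 6 nearest genes with most rises and with most falls, the 8 with most regions (ties kept), genes of the lists, the 8 strongest and 4 farthest regions, the 3 regions on each side of the threshold, and up to 6 regions per direction for sex. Sex was tested with limma 3.58.1 (trend, log2(tags + 1), mean of at least 10 tags, all regions adjusted together), which was tested on simulated data, with edgeR 4.0.16 (quasi-likelihood) on recovered reads as an alternative, and with an exact permutation test of shares. Each replicate is a separate mouse. Of 1173 nearest gene names 1171 matched the RefSeq gene table of GRCm38.p6, and 2480 of 2485 intron transcripts did. No genome was used, so motifs were searched only in RefSeq promoter windows.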

Additional observations from a re-analysis of the deposited data

Results flagged for a closer look

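Summed over the 35 remote regions nearest Prdm1, female mouse 3 held 1722 tags, against 2170, 2155 and 2097 in female mice 4, 7 and 8, which set it apart from the other females (gap over range 0.837). Male mice 1, 2, 5 and 6 held 1564, 1458, 1704 and 1554 tags. Of 78 groups of libraries examined 1 stood out in this way, and chance sets about 1 in 20 apart where the libraries of a group are alike. Many of the groups were for regions or genes named for a change with IL-33, where a sex often had 2 high and 2 low libraries. That rate need not hold there, so the count does not show that such libraries are rare.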

How the results depend on the processing

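In the authors' deposited table, remote rises and falls came to 5.29% and 6.29% at an adjusted p under 0.01, and to 13.7% and 16.4% among regions at or above the median level of all tested regions; beyond 200 kb, falls came to 16.5%. The stricter threshold lowers shares by construction, and for the level filter the cause was not tested. Taken by distance to both ends of RefSeq genes, since that table has no strand, the authors' deposited table lists 6.25% of 1040 regions as risen and 10.2% as fallen. Of 85 named IL-33 regions, 5 lost their call at an adjusted p under 0.01, 2 gained one under 0.1 and 3 fell under a log2 change of 1. Clusters, repeats left out and the distance alternatives not named left the shares within 1.5 times.

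Remote regions higher in female mice numbered 2 with no filter, 4 with edgeR, 0 after quantile normalisation and 0 after TMM rescaling, and 0 to 20 when single libraries were left out, most without female mouse 3 and 0 without female mouse 7 or 8 or male mouse 1, 2 or 5. Remote regions lower in female mice numbered 21 with no filter, 4 after quantile normalisation and 3 after TMM rescaling, and 0 to 2 with single libraries left out. With the authors' scaling, 258 of 2858 remote regions had an unadjusted limma p under 0.05 in either direction, against 6790 of all 53348 regions. Of these remote regions 250 were higher in female mice, against 110 of 2858 with quantile normalisation and 46 of 2859 with TMM rescaling. The causes were not tested. The difference in share of 0.666 points became 1.69 points over 50 kb (exact permutation p = 0.0286), and without satellite regions, chosen after seeing the data, it was 0.633 points (p = 0.0571, exact permutation test). The split of calls by cluster and without Sdk1 was likewise chosen after seeing the data. No paired analysis was possible because the female and male groups share no mouse number.

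Depth limits single regions, with a median of 3 to 4 reads in female libraries, and the 1749 regions without an adjusted p were not compared. The highest standard error of a tested remote region is 0.678 in the authors' deposited table, also where 1 group is near 0.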

Other observations

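On chromosome 3, 24 remote regions rose and 7 fell of 194 tested in the authors' deposited table, and on chromosome 6, with the Etv6 introns, 31 rose and 13 fell of 188. On chromosome 17, 4 rose (3.03%) and 25 fell (18.9%) of 132 in the authors' deposited table. On chromosome 9, 6 rose (3.37%) and 30 fell (16.9%) of 178 in the authors' deposited table. On chromosome 7, 4 rose (2.14%) and 21 fell (11.2%) of 187, with the share of falls near that of all remote regions. Chromosome 16 had 24 rises (19.2%) and 18 falls (14.4%) among 125 tested regions in the authors' deposited table. Chromosome 5 had 17 rises (11.3%) and 24 falls (16%) among 150, and chromosome 11 had 3 rises (3%) and 15 falls (15%) among 100. The other chromosomes are not listed here. Differences between chromosomes were not tested, and neighbouring regions are not independent.

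The labels put no mouse in the IL-33 or the vehicle group. The median remote region listed as risen in the authors' deposited table held 70.4, 87.1, 25.1 and 23.2 tags in female mice 3, 4, 7 and 8, and 67.9, 53.3, 18.9 and 19.4 tags in male mice 1, 2, 5 and 6. The median region listed as fallen in the authors' deposited table held 20.5, 19.4, 72.5 and 69.6 tags in the same female mice and 16.0, 19.5, 48.8 and 48.4 tags in the same male mice. Within each sex the libraries formed 2 pairs on both measures. The authors' deposited table rests on the same libraries, so these values choose and show the same regions, and no mouse was assigned to a group from them.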
